A study of Rattus norvegicus with 8 samples.

Results

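Ceacam4 and Ceacam1 are 2 members of the carcinoembryonic antigen-related cell adhesion molecule (CEACAM) family, and their transcripts were compared between 0.5MAhR and Control livers of 21-day-old male Sprague-Dawley rats. The array carried 1 probe for each gene, A_44_P411912 for Ceacam4 (NM_173339) and A_44_P538551 for Ceacam1 (NM_031755), each printed as 2 spots, so that 16 spots stood for each gene over 8 arrays. They are 2 of 10567 genes that were measured well enough to be tested, out of 30367 probes on 58717 spots. Both genes were chosen by their log2 ratios in this same contrast, Ceacam4 for a high value in 0.5MAhR livers and Ceacam1 as its relative with little difference, so the difference between the groups is given for both as a description, without a test.

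Livers of the 0.5MAhR group came from pups whose dams had received 0.5 mg/kg/day of a mixture of organochlorine pesticides, polychlorinated biphenyls and methyl mercury plus aryl hydrocarbon receptor agonists (non-ortho polychlorinated biphenyls, dioxins and furans) at 6.3 ng/kg/day of dioxin toxic equivalents. Livers of the Control group came from pups of dams that had received the corn oil vehicle only. Dosing ran through gestation and lactation in both groups, and neither group was cross-fostered. Each group had 8 pups, and each array took the pooled RNA of 2 pups, giving 4 arrays per group (0.5MAhR replicates 1 to 4, Control replicates 5 to 8). The litters of the pooled pups are not stated in the labels, so the tests measure the spread between pools of pups and not between dams. On every array the liver RNA was labelled with Cy5 and a universal reference RNA from 14 rat cell lines with Cy3, and a log2 ratio below is Cy5 over Cy3. Since the dyes were not swapped, a dye bias of a probe is part of its ratio in both groups alike.

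CEACAM proteins are glycoproteins of the immunoglobulin superfamily, many of them on the cell surface, where several bind each other between neighbouring cells. CEACAM1 is the member best known in liver, where it lies in the bile canalicular membrane of hepatocytes, is phosphorylated by the insulin receptor, takes part in the receptor-mediated clearance of insulin, and recruits the phosphatases SHP-1 and SHP-2 through its cytoplasmic tail. CEACAM4 is described mainly from human granulocytes, where it acts as an activating receptor. The rat gene that carries this symbol has Ceacam10 as a synonym in the RefSeq gene table, so the human role cannot be carried over to it. Liver is a bulk tissue here, and for every transcript below fewer cells of a type and less RNA per cell cannot be told apart.

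The start regions of the 2 genes are shown because they are almost the same sequence. That the 2 genes differ on the arrays follows from how they were chosen, and a link to these sequences was not tested. The 250 bases before each annotated start, as RefSeq gives them on GRCr8, lie at chr1:89504305-89504554 (plus strand) for Ceacam4 and at chr1:90187793-90188042 (minus strand) for Ceacam1. Capitals mark the bases that differ between the 2 sequences where they align, a base without a partner inside the alignment included.
Ceacam4: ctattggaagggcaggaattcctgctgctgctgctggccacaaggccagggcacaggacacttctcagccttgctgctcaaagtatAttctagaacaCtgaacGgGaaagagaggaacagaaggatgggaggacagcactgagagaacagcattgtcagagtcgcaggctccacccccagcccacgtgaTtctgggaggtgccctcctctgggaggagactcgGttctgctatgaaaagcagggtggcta
Ceacam1: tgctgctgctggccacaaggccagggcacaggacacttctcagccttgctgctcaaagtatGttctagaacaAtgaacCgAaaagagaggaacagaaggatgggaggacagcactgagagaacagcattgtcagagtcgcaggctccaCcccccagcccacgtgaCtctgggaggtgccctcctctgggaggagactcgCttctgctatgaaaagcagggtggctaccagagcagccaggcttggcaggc
The alignment covered 226 columns, of which 219 were identical (96.9%), 6 were mismatches and 1 was a gap, with the Ceacam1 window shifted by 25 bases. Windows that also include 50 bases after the start shared 203 of 288 12-base words. No other promoter of the 33467 in the table shared more than 7 such words with either, and 32933 shared none with that of Ceacam4. Within the family, Ceacam11 and Ceacam12 each shared 3 and the other members shared 0. The 2 starts lie 683 kb apart, with 32 annotated genes between them, 23 of them protein coding.

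Motifs were searched in these 250 bases on both strands. The core of the aryl hydrocarbon receptor element, GCGTG, had 0 matches in either sequence and was found in 25.9% of all 33469 promoters. The E-box CACGTG occurred 1 time in each, 68 bases before the start of Ceacam4 and 92 before that of Ceacam1, against 5.59% of promoters with a match. The antioxidant response core TGACNNNGC also occurred 1 time in each, 101 bases before the start of Ceacam4 and 126 before that of Ceacam1, against 10.1% of promoters. The nuclear receptor element AGGTCA had 0 matches in both, against 14.1% of promoters. No 2 of the matches overlap, and a match or its absence describes the letters of these 250 bases only. Bases farther from the start were not searched.

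Ceacam4 was 3.11-fold higher in 0.5MAhR livers than in Control livers. Its log2 ratio was 1.63, 2.65, 2.26 and 2.82 in 0.5MAhR replicates 1 to 4, against 0.58, 0.50, 0.89 and 0.83 in Control replicates 5 to 8. All 4 arrays of the 0.5MAhR group lay above all 4 of the Control group, with 0.74 between the lowest 0.5MAhR array and the highest Control array. Groups apart by a gap of any size with 0.5MAhR on top were found for 83 of 10567 genes (0.785%), from which nothing is read for a gene chosen on this contrast. The means were 2.34 ± 0.53 in 0.5MAhR livers and 0.70 ± 0.19 in Control livers (SD, n = 4 each), a difference of 1.64 on the log2 scale. By size this was the 4th largest rise among the 10567 genes, where 15 genes were more than 2-fold higher and the median difference was -0.00785. Replicate 1 was the lowest of the 0.5MAhR arrays and replicate 4 the highest, so the 0.5MAhR group was more spread than the Control group.

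Ceacam1 had nearly the same mean in both groups. Its log2 ratio was 0.37, 1.06, 0.71 and 1.18 in 0.5MAhR replicates 1 to 4, against 0.98, 0.53, 0.73 and 0.96 in Control replicates 5 to 8. The groups overlapped, with the 0.5MAhR group holding both the lowest and the highest array. The means were 0.83 ± 0.37 in 0.5MAhR livers and 0.80 ± 0.21 in Control livers (SD, n = 4 each), a difference of 0.03, or 1.02-fold. Of all genes tested, 24.9% had a smaller absolute difference than Ceacam1 and 99.96% a smaller one than Ceacam4.

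**Figure D1:**
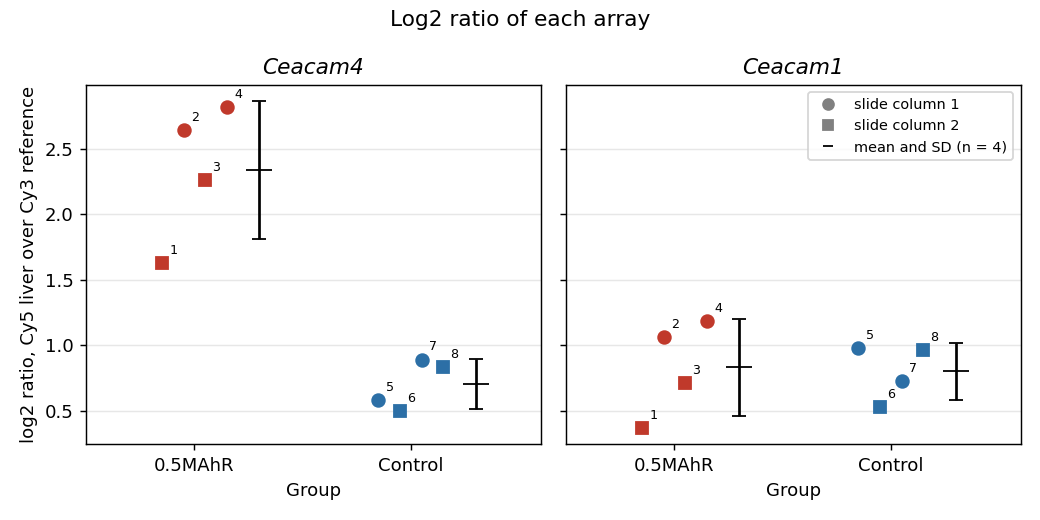
Log2 ratio of Cy5 liver over Cy3 reference (y axis) of Ceacam4 and Ceacam1 on each array, with 0.5MAhR left of Control; numbers are replicates, circles and squares are slide columns 1 and 2, and bars are the mean and SD (n = 4). The 0.5MAhR arrays of Ceacam4 lie between 1.63 and 2.82, above every Control array, while the groups of Ceacam1 overlap.

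The difference in Ceacam4 lay in the Cy5 channel, which held the liver RNA. Its net Cy5 signal, the spot median less the local background, was 110, 256, 255 and 350 intensity units in 0.5MAhR replicates 1 to 4, against 39, 40.5, 58.75 and 70 units in Control replicates 5 to 8. The lowest 0.5MAhR array was above the highest Control array. The means were 243 ± 99.1 units in 0.5MAhR livers and 52.1 ± 15.0 units in Control livers (SD, n = 4 each). Its net Cy3 signal, from the reference RNA, was 70.5, 89.25, 74.5 and 77.5 units on the 0.5MAhR arrays, against 82, 69.5, 72.25 and 77.5 units on the Control arrays. These overlapped, with means of 77.9 ± 8.07 units on 0.5MAhR arrays and 75.3 ± 5.56 units on Control arrays. After quantile normalisation of each channel on its own, the log2 Cy5 signal of Ceacam4 was 8.10 ± 0.37 in 0.5MAhR livers and 6.80 ± 0.12 in Control livers, a difference of 1.30, whereas log2 Cy3 differed by 0.0027.

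Ceacam1 was dim in both channels. Its net Cy5 signal was 16.25, 44.5, 34.25 and 54.5 units in 0.5MAhR livers, against 40, 25, 30.75 and 45.25 units in Control livers. The groups overlapped, with means of 37.4 ± 16.3 units in 0.5MAhR livers and 35.3 ± 9.09 units in Control livers (SD, n = 4 each). Its net Cy3 signal averaged 23.6 ± 6.66 units on 0.5MAhR arrays and 21.6 ± 1.09 units on Control arrays. On each channel alone the log2 difference was 0.0088 in Cy5 and -0.0006 in Cy3.

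Brightness set how far these values can be read. The scanner software marked Ceacam4 as well above background in Cy5 on 8 of 8 spots of the 0.5MAhR group and 7 of 8 of the Control group, the lower spot of Control replicate 6 being the exception, and in Cy3 on 16 of 16. Ceacam1 was well above background in Cy5 on 6 of 8 spots of the 0.5MAhR group and 7 of 8 of the Control group. By arrays this came to 3 of 4 in each group, without 0.5MAhR replicate 1 and Control replicate 6. In Cy3 only 2 of 16 Ceacam1 spots were marked, and on no array were both, so its ratio rests on a reference signal that was not well above background and its level relative to the reference is a bound. No spot of either gene was saturated or marked as an outlier.

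The 2 spots of each probe lie in different parts of the array, and each gave the same direction for Ceacam4. At the upper spot (row 42) the net Cy5 signal was 162, 183, 345 and 251 units in 0.5MAhR livers, against 38, 70, 54.5 and 97.5 units in Control livers. At the lower spot (row 347) it was 58, 328.5, 165 and 449 units in 0.5MAhR livers, against 40, 11, 63 and 42.5 units in Control livers. The log2 ratio of the upper spot averaged 2.38 in 0.5MAhR livers and 0.91 in Control livers, a 2.77-fold difference, and that of the lower spot averaged 2.29 in 0.5MAhR livers and 0.49 in Control livers, a 3.49-fold difference. At neither spot did the ratios of the groups overlap, although in net Cy5 the lower spot of 0.5MAhR replicate 1, at 58 units, lay below the 63 units of Control replicate 7. For Ceacam1 the 2 spots went opposite ways, with 0.5MAhR minus Control at -0.14 for the upper spot (row 115) and 0.21 for the lower spot (row 361).

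**Figure D2:**
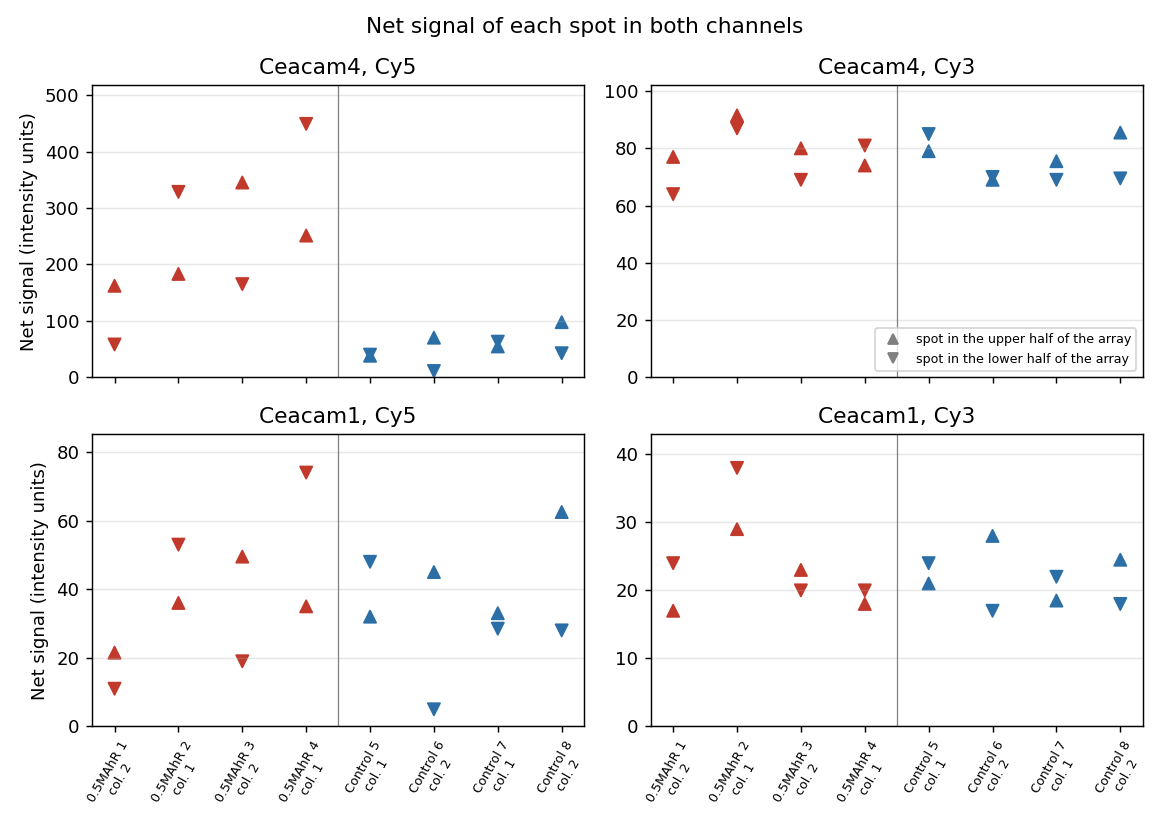
Net signal in intensity units (y axes, starting at 0) of both spots of Ceacam4 and Ceacam1 in Cy5 (left) and Cy3 (right) on the 4 0.5MAhR arrays and then the 4 Control arrays, with the slide column under each; upward triangles are the upper spot and downward triangles the lower spot. The Cy5 spots of Ceacam4 lie between 58 and 449 units on 0.5MAhR arrays and between 11 and 97.5 units on Control arrays, while the Cy3 spots of the groups overlap.

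Over all probes, the gap between a probe's spots followed the slide column, the first number of the array's position on its slide. Column 1 held 0.5MAhR replicates 2 and 4 and Control replicates 5 and 7, and column 2 held 0.5MAhR replicates 1 and 3 and Control replicates 6 and 8, so each column had 2 arrays of each group. Over 2694 to 3174 probes per array with a spot in each part, the median log2 Cy5 of the lower over the upper spot was between 0.437 and 0.476 on the 4 arrays of column 1 and between -0.813 and -0.475 on the 4 arrays of column 2. In Cy3 it lay between -0.0691 and -0.00966 on all 8 arrays. For Ceacam4 the same quantity in Cy5 was -1.48, 0.84, -1.06 and 0.84 in 0.5MAhR replicates 1 to 4, against 0.07, -2.67, 0.21 and -1.20 in Control replicates 5 to 8. It was negative on the 4 arrays of column 2 and positive on the 4 of column 1, as over all probes. For Ceacam1 it was -0.97, 0.56, -1.38 and 1.08 in 0.5MAhR replicates 1 to 4, against 0.58, -3.17, -0.21 and -1.16 in Control replicates 5 to 8. Control replicate 7, in column 1, was the exception, with a negative value where the median over all probes was 0.468.

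Within each slide column the Ceacam4 groups stayed apart, as groups that are apart over all arrays must. In column 1 the mean log2 ratio was 2.73 in 0.5MAhR livers and 0.74 in Control livers (n = 2 each), a 3.99-fold difference. In column 2 it was 1.94 in 0.5MAhR livers and 0.66 in Control livers (n = 2 each), a 2.43-fold difference. On Cy5 alone the log2 differences were 1.57 in column 1 and 1.03 in column 2, and on Cy3 alone -0.0037 in column 1 and 0.0092 in column 2. For Ceacam1 the mean log2 ratio in column 1 was 1.12 in 0.5MAhR livers and 0.85 in Control livers, 1.20-fold, and in column 2 it was 0.54 in 0.5MAhR livers and 0.74 in Control livers, 0.867-fold. By ratio its 4 arrays of column 1 did not overlap by group, with a gap of 0.08, while those of column 2 did. With 2 arrays against 2 this happens easily, and its share over all genes was not counted, so nothing is read from it. On Cy5 alone its groups overlapped in column 1 and in column 2.

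The effect of the slide column itself did not choose the members and was tested with limma, adjusted over all genes. It passed the threshold of 0.05 for 6020 of the 10567 genes, 57%, of which 3053 were lower in column 2 (28.9% of all). Neither member passed. Column 2 minus column 1 in log2 ratio was -0.43 for Ceacam4 (SE 0.18, adjusted p = 0.0713) and -0.35 for Ceacam1 (SE 0.14, adjusted p = 0.0580). Single arrays decided both calls: the adjusted p was 0.0307 for Ceacam4 without Control replicate 5 and 0.0244 without Control replicate 8, and 0.0273 for Ceacam1 without Control replicate 7 and 0.00736 without Control replicate 8.

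Whether the difference between the groups had another size in column 2 than in column 1 was tested as an interaction. It was -0.72 (SE 0.30, adjusted p = 0.942) for Ceacam4 and -0.47 (SE 0.25, adjusted p = 0.942) for Ceacam1. No gene passed in limma, 0 of 10567 or 0%, with 529 at an unadjusted p under 0.05.

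**Figure D3:**
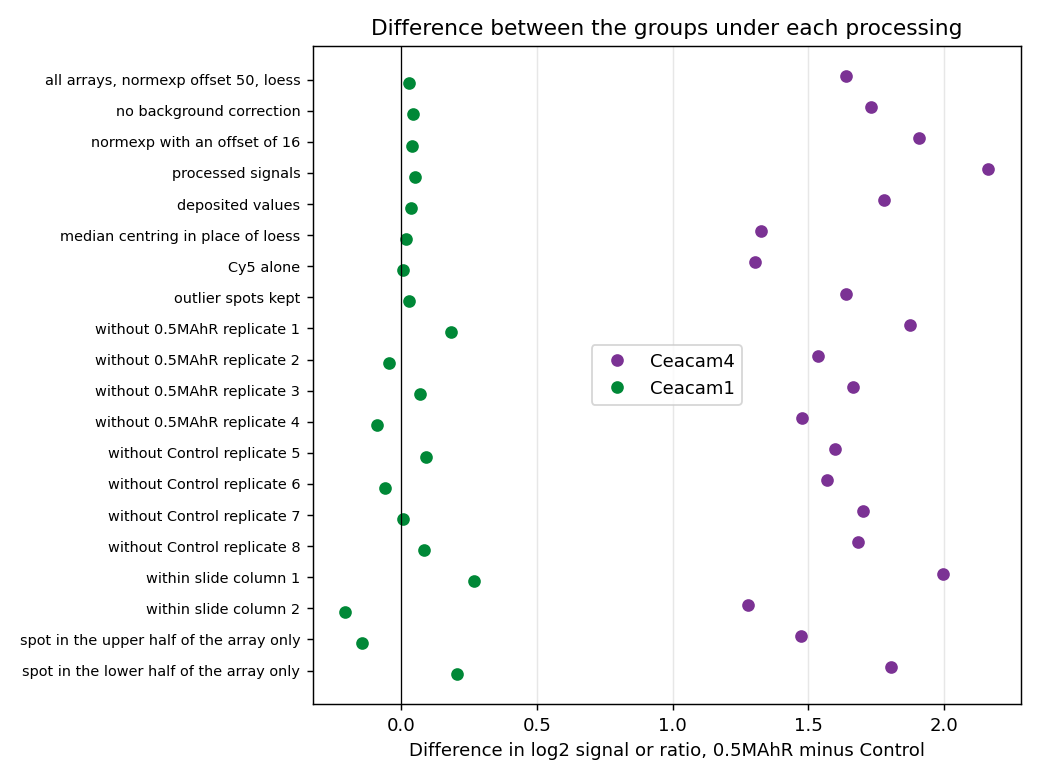
Difference in log2 ratio, or in log2 signal for Cy5 alone, of 0.5MAhR minus Control (x axis) for Ceacam4 and Ceacam1 under each way of processing, with each array left out, within each slide column and for each spot. Ceacam4 lies between 1.28 and 2.16 and Ceacam1 between -0.21 and 0.27.

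The exposure label was checked with Cyp1a1, a cytochrome P450 that is a standard target of the aryl hydrocarbon receptor. Its log2 ratio was 4.15, 4.84, 5.27 and 5.47 in 0.5MAhR livers, against 1.02, 0.30, 0.71 and 1.55 in Control livers, a 16.4-fold rise (log2 difference 4.04, SE 0.31, limma adjusted p = 0.00283). The rise did not pass with the slide row as the block in place of the column (adjusted p = 0.159) or on the scanner's processed signals (5.20, adjusted p = 0.1004). Among the 0.5MAhR arrays Cyp1a1 was lowest in replicate 1, which was also lowest for Ceacam4 and for Ceacam1. That array had the smallest share of spots above background in Cy5 of all 8 arrays, 42.9%. Of the 5 named genes most like Ceacam4, given below, Akr7a3 and Cyp2a3 were also lowest in 0.5MAhR replicate 1. Ephx1 and Gstm2 were lowest in 0.5MAhR replicate 2, and Slc35c2 in replicate 3. Whether the brightness of an array plays a part in these orders was not tested. In the fit of the group with the slide column as a covariate, 5 of 10567 genes (0.0473%) passed, each higher in 0.5MAhR livers, and 671 had an unadjusted p under 0.05. These were Cyp1a1, Cyp2b2 (log2 difference 2.04, adjusted p = 0.0299), Cyb5a, an unnamed probe and Ceacam4, whose place among them follows from how it was chosen. The Cyp2b2 call was lost when any 1 of 5 arrays was left out (0.5MAhR replicates 1, 3 and 4 and Control replicates 5 and 8; adjusted p 0.0878 to 0.133) and on processed signals (0.70, adjusted p = 0.463). Without the column in the fit 1 gene passed (0.00946%). Groups that did not overlap with 0.5MAhR below were found for 56 genes (0.53%).

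The rest of the family was mostly dark in liver. Apart from the members, 11 genes named Ceacam or Psg had a probe, and Ceacam9 alone was measured well enough for a test. Its log2 ratio averaged 0.06 ± 0.06 in 0.5MAhR livers and 0.10 ± 0.09 in Control livers (SD, n = 4 each; difference -0.04, SE 0.07, adjusted p = 0.943), and the sign of this difference turned with the scaling. The probe annotated to Ceacam9 was bright in both channels, at 32357 to 47885 net Cy5 units on the 8 arrays, and whether it measures that transcript was not tested. The other 10, Ceacam3, Ceacam11, Ceacam12, Ceacam16, Ceacam19, Ceacam20, Psg16, Psg19, Psg29 and Psgb1, were well above background in Cy5 on no array. In Cy3, Psgb1 was above background on 8 arrays and Ceacam16 and Ceacam20 on 1 each. Pregnancy-specific glycoproteins (Psg) are placental products in rodents. How far the probes of Ceacam4 and Ceacam1 can bind each other's transcript was not tested, since their sequences were not used here.

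None of the tested genes that act with CEACAM1 passed the threshold. Of 19 proteins that bind CEACAM1, signal with it or degrade insulin, 18 had a probe and 13 were tested; 0 passed, beside 0.0473% of all genes, and 1 had an unadjusted p under 0.05 (7.69%, against 6.35% of all genes). Their median difference was 0.025 (all genes -0.00785), from -0.30 to 0.42, and 9 were positive (69.2%, against 46.7% of all genes). The insulin receptor Insr, whose kinase phosphorylates CEACAM1, had a log2 ratio of 0.30 ± 0.20 in 0.5MAhR livers and 0.61 ± 0.14 in Control livers (difference -0.30, SE 0.11, adjusted p = 0.641). Within column 1 the difference was -0.14 and within column 2 it was -0.46. Ptpn6, which encodes SHP-1, differed by 0.13 (SE 0.06, adjusted p = 0.799). The adaptor Shc1 differed by -0.17 (SE 0.10, adjusted p = 0.866). Fasn, the fatty acid synthase that CEACAM1 binds, had the widest difference of the list and the widest error, 0.42 (SE 0.39). Src, Lyn and Havcr2 were well above background in Cy5 on no array. Irs1, Pxn and Ptpn11, which encodes SHP-2, were not tested either.

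The proteins that share the bile canalicular membrane with CEACAM1, and Slc10a1 (the bile acid importer of the opposite membrane), held no gene past the threshold either. Of 20 genes with a probe 15 were tested; 0 passed, and 4 had an unadjusted p under 0.05 (26.7%, against 6.35% of all genes), of which 2 were higher in 0.5MAhR livers. Their median difference was 0.010, from -0.56 to 0.42, with 9 positive (60%). Abcc2, the exporter of bilirubin conjugates, had a log2 ratio of 4.40 ± 0.10 in 0.5MAhR livers and 3.98 ± 0.05 in Control livers (SD, n = 4 each). Its groups did not overlap, and its difference of 0.42 was nearly the same in column 1 (0.43) and column 2 (0.40), but it did not pass (SE 0.07, adjusted p = 0.191). The water channel Aqp8 differed by 0.35 (SE 0.14, adjusted p = 0.730) and the copper exporter Atp7b by -0.25 (SE 0.10, adjusted p = 0.736). The bile salt export pump Abcb11 had the lowest difference, -0.56 (SE 0.39), which was -1.15 in column 1 and 0.04 in column 2. Abcb1a, Abcg8, Slc47a1, Myo5b and Stx3 were well above background in Cy5 on no array.

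**Figure D4:**
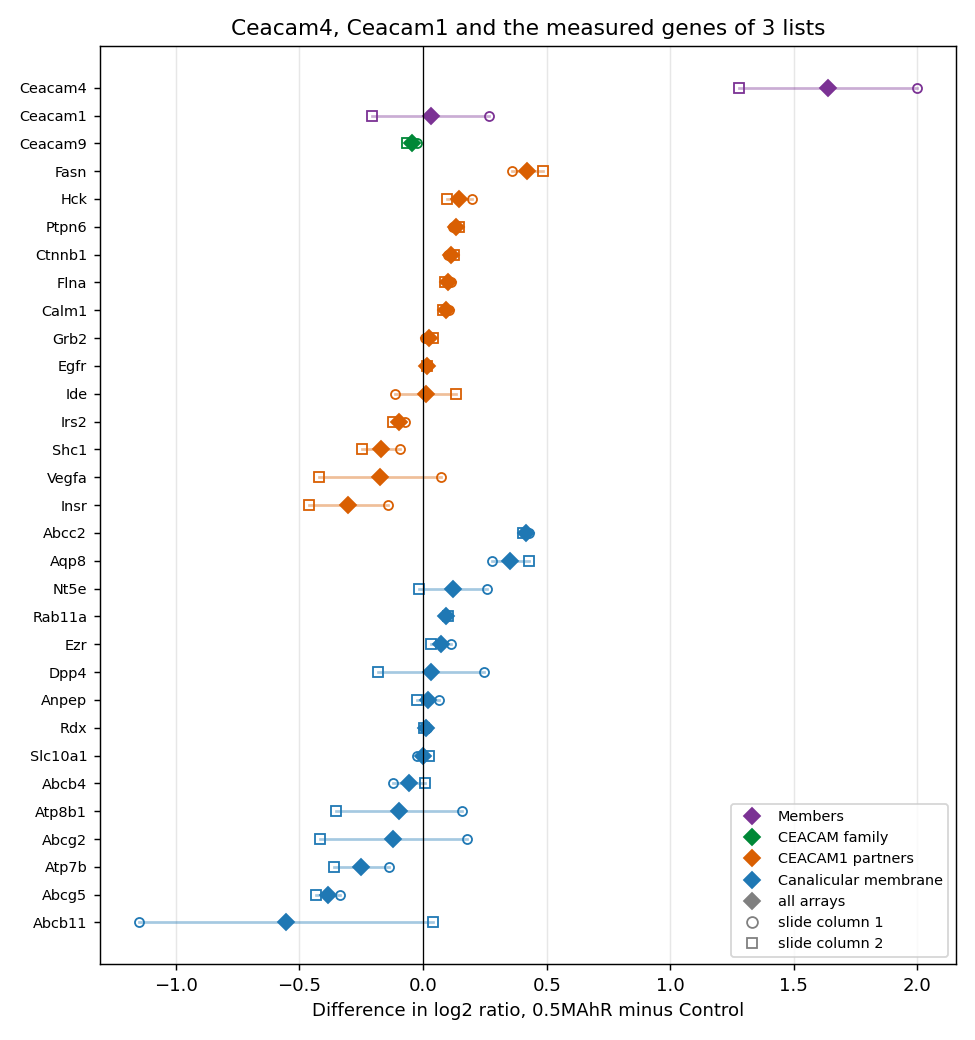
Difference in log2 ratio, 0.5MAhR minus Control (x axis), of Ceacam4, Ceacam1 and the tested genes of the CEACAM family, of CEACAM1 partners and of the canalicular membrane; diamonds are all arrays, and open circles and squares are slide columns 1 and 2. The listed genes lie between -0.56 and 0.42, and Ceacam4 is at 1.64.

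Markers of the cell types that a liver sample can hold were measured beside the members. Albumin and the other hepatocyte markers were all tested (10 of 10), as the tissue label implies, and their summed net Cy5 signal was 754476 to 1102610 units in 0.5MAhR livers and 862755 to 1068760 units in Control livers. Neutrophil markers, of interest because human CEACAM4 is a granulocyte receptor, summed to 509 to 979 units in 0.5MAhR livers and 472.5 to 958 units in Control livers. Of these 12 markers 11 had a probe and 5 were tested, with 0 past the threshold, and Elane, Ltf, Csf3r, Cxcr2, Mmp8 and Ngp were well above background on no array. Macrophage markers (9 of 9 tested) summed to 9223 to 19859 units in 0.5MAhR livers and 10341 to 14020 units in Control livers. The 4 tested lymphocyte markers summed to 215 to 420 units in 0.5MAhR livers and 254 to 341 units in Control livers. The 4 tested cholangiocyte markers summed to 109 to 254 units in 0.5MAhR livers and 128 to 195 units in Control livers. Endothelial markers (4 of 7) summed to 2011 to 3632 units in 0.5MAhR livers and 2083 to 2792.5 units in Control livers, and erythroid markers (3 of 6) to 2179 to 4063 units in 0.5MAhR livers and 2107 to 3679.5 units in Control livers. The ranges of the groups overlapped for all 7 lists, and 0 of their tested genes passed the test. These sums were not normalised between arrays and the brightest markers weigh most in them, so they give only a rough level. By fitted difference the hepatocyte markers leaned lower in 0.5MAhR livers (1 of 10 positive, median -0.13, 2 lower at an unadjusted p under 0.05, Fgb and Cps1), and the macrophage markers leaned higher (7 of 9 positive, median 0.13, 1 higher at an unadjusted p under 0.05, Adgre1). The part of these leanings in the values of Ceacam4 was not tested.

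The named genes whose pattern over the 8 arrays was most like that of Ceacam4 were found by the root mean square difference of log2 ratios, each gene first centred on its own mean within each slide column. Since this measure includes the difference that chose Ceacam4, likeness is a description. Over 6937 named genes its median was 0.868, while the 5 nearest lay between 0.305 and 0.522. Akr7a3, an aldo-keto reductase known for reducing aflatoxin dialdehyde, was the nearest, with log2 ratios of 0.18, 0.75, 0.80 and 1.12 in 0.5MAhR livers, against -0.50, -1.12, 0.03 and -0.69 in Control livers. Its groups did not overlap, and the difference was 1.28. Ephx1, the microsomal epoxide hydrolase (likeness 0.473), had 4.15, 3.79, 4.65 and 3.95 in 0.5MAhR livers, against 3.17, 2.91, 3.21 and 3.35 in Control livers. Cyp2a3, a cytochrome P450, and Gstm2, a glutathione S-transferase, had differences of 0.86 and 0.82 and did not overlap either. Slc35c2, a member of the nucleotide sugar transporter family, had the larger difference of 1.58, but 0.5MAhR replicate 3, at 0.13, lay below Control replicate 7, at 0.96. The order of the arrays differed between the genes: Ceacam4 was highest in 0.5MAhR replicate 4, Ephx1 in replicate 3.

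**Figure D5:**
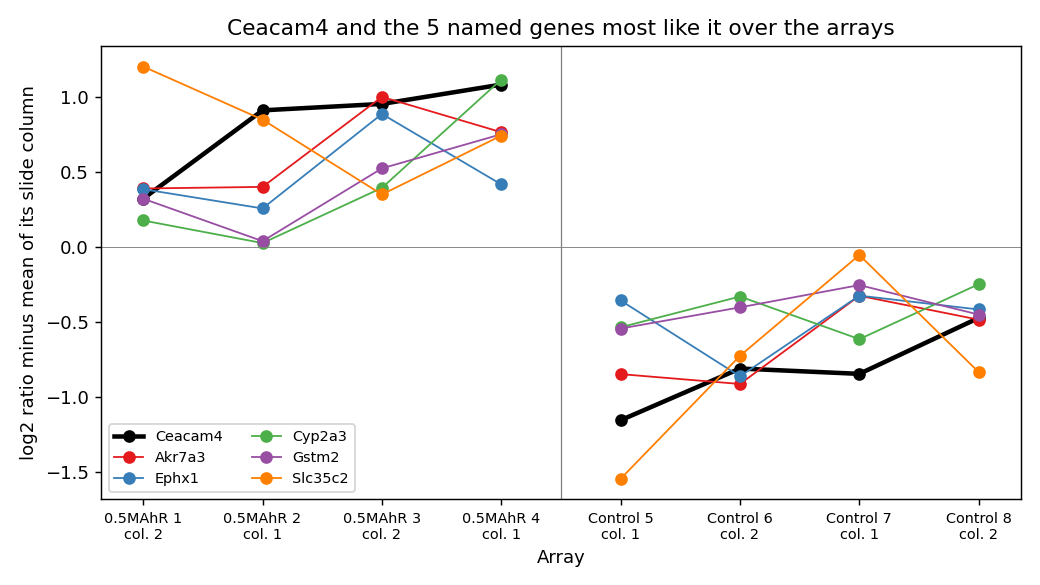
Log2 ratio of Ceacam4 and the 5 named genes most like it, less each gene's mean in its slide column (y axis), on the 4 0.5MAhR arrays and then the 4 Control arrays. The 0.5MAhR arrays lie above 0 and the Control arrays below it for all 6 genes shown.

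Around Ceacam1 the nearest genes were ones with little difference between the groups. The measure includes the group difference within each slide column, and Ceacam1 was chosen for a small difference, so this likeness too is a description. The spread of Ceacam1 as processed here was small (root mean square 0.196 after centring). That of Ceacam4, 0.862, includes the group difference that chose it. Ceacam1 was dim, and the overlap of its groups changed with the processing. Its lowest 0.5MAhR array less its highest Control array was -0.61 here, -0.96 with an offset of 16 and -1.84 on processed signals. This was -0.59 without background correction, -0.57 in deposited values, -0.39 with median centring and -0.37 on Cy5 alone. The part of the processing in the small spread was not tested. The median of the measure over named genes was 0.213. Actb (cytoplasmic beta-actin, 0.0579), Reep3 (an endoplasmic reticulum protein, 0.0580), Atf6 (a sensor of unfolded protein in the endoplasmic reticulum, 0.0674), Rpl39 (a ribosomal protein, 0.0741) and Tmbim6 (an endoplasmic reticulum membrane protein, 0.0753) were nearest. Their group differences lay between -0.074 and 0.068. Each was positive in column 1 and negative in column 2, as was that of Ceacam1, a likeness that the measure itself favours.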

How the data were processed

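The deposited scanner files of 8 2-colour Agilent arrays hold intensity units, the median signal and background of each spot in both dyes, made with Agilent Feature Extraction 11.0.1.1 on a design of rn4, per the file headers. Mean signals are not in the files. From the medians, normexp background correction (offset 50), loess within each array (control spots at weight 0) and log2 ratios of Cy5 over Cy3 were computed in limma 3.58.1 under R 4.3.3. Outlier spots, as the scanner software marks them, were dropped before the spots of a probe were averaged. To be kept, a probe needed Cy5 well above background in either group on 3 or more of its 4 arrays, an array counting when most of the probe's spots there were so marked. This left 11407 probes and 10567 genes (6938 named), each represented by its brightest probe. Group and slide column were fitted with lmFit and eBayes, two-sided, and p-values were adjusted by Benjamini-Hochberg (threshold 0.05); the fit was first tested on simulated data. For one channel alone, normexp and quantile normalisation between arrays were used.

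The deposited log2 values, whose making no label or header used here describes, were an alternative. Over 30367 probes they correlated with ratios computed here without background correction, with r of 0.997 to 0.998 (slope 0.995 to 1.00). The deposited values therefore run as Cy5 over Cy3. The medians of their columns were -0.0389 to -0.0326, so how they were centred is unknown.

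In Cy5 42.9% to 49.2% of an array's spots cleared the background mark, in Cy3 64.3% to 67.8%, and 0 were saturated. Ratios correlated with r of 0.981 to 0.991 between arrays of 1 slide column and of 0.938 to 0.962 between columns. Precision is limited by how few arrays there are. The other groups and ages of the 72 arrays were not analysed here.

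The members, lists, the covariate and tests were chosen with earlier results of these data known. Named are the members' probes, measured genes of the family, list genes past the threshold or else the list's 3 of smallest unadjusted p, the 5 genes most like each member, and Cyp1a1 as a check of the exposure. Other genes (Cyp2b2, Cyb5a, Fasn, Abcb11, Fgb, Cps1, Adgre1 and those on no array or not tested) were picked with their values in view. Promoters and neighbours are from RefSeq (GRCr8), with both members matched by symbol. Alternatives were other corrections and normalisations, the deposited values, Cy5 alone, other forms of the fit, each array left out, and each slide column and spot alone.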

Additional observations from a re-analysis of the deposited data

How the results depend on the processing

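The direction of the Ceacam4 difference, with the groups apart, held in 11 other settings and with each of the 8 arrays left out. Leaving out an array or taking 1 slide column cannot make groups that are apart overlap, so those runs show only the size of the difference. Keeping outlier spots, 1 of the settings, could not change the values of either member, since none of their spots was so marked. The difference lay between 1.28 and 2.16 on the log2 scale (2.43-fold to 4.48-fold) over the settings and between 1.48 and 1.87 with an array left out. The largest, 2.16, came from the scanner's processed signals. The smallest gap between the groups, 0.10, came from the lower spot alone, a setting chosen, with the upper spot alone, after seeing the data. Ceacam1 lay between -0.21 and 0.27 over the settings and between -0.09 and 0.18 with an array left out. Its groups were apart within slide column 1 only, from which nothing is read. In Cy3 Ceacam4 differed by -0.0097 to 0.019 and Ceacam1 by -0.014 to 0.026. The count of genes past the threshold, 5 as reported, was 0 with processed signals (860 at an unadjusted p under 0.05 in limma), 3 with median centring, 14 on Cy5 alone, 3 with the trended robust fit, 1 without the column, 0 with the slide row as a block (76 at an unadjusted p under 0.05) and between 1 and 11 with an array left out. The slide column difference of Ceacam4 lay between -0.57 and -0.23 with an array left out (adjusted p 0.0244 to 0.190). That of Ceacam1 was -0.57 with an offset of 16 (adjusted p = 0.0405), -0.22 on Cy5 alone (0.0467), -0.35 in the trended robust fit (0.0494) and between -0.48 and -0.23 with an array left out (0.00736 to 0.160). The interaction lay between -1.03 and -0.40 for Ceacam4 and between -0.69 and -0.26 for Ceacam1 with an array left out, past the threshold in neither. The counts of the family, partner and canalicular lists were 0 in every setting run in limma, with 0, 0 to 2 and 1 to 5 at an unadjusted p under 0.05. Of the tested genes named, Cyp1a1 passed in 9 of the 11 other settings and with each array left out (adjusted p 0.00103 to 0.0299), and Cyp2b2 in 4 of the 11. Ceacam9 turned positive with processed signals (0.050), the deposited values (0.055), median centring (0.056) and Cy5 alone (0.042), and passed nowhere. Insr, Ptpn6, Shc1, Abcc2, Aqp8 and Atp7b kept their sign and did not pass in any. The causes of these changes were not tested. Another probe of each gene could not be tried, since each has 1. The labels give no pairing of the samples, since the groups share no replicate number. The slide row holds 1 array of each group, so the fit with it as the block, above, paired the arrays by position on the slide only. Brightness limits Ceacam1, whose reference signal was well above background on no array.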
